A study of Danio rerio with 4 samples.

Results

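Of 3997 Tbx6myc peaks found in zebrafish embryos by chromatin immunoprecipitation and sequencing (ChIP-seq), 827 were remote, meaning that the nearest other peak of the same chromosome lay more than 200 kb away, edge to edge. They were selected by position. Peaks on unplaced scaffolds (209) and the 10 peaks on numbered chromosomes that shared at least 1 bp with a peak of the wild-type control were set aside, which left 3778 kept peaks on 25 chromosomes. Every kept peak with no other kept peak within 200 kb was then taken, whatever its score. The remote peaks made up 21.9% of the kept peaks (exact 95% binomial interval 20.6 to 23.2%), and together they covered 400 kb. Intervals of this kind cover counting error only.

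Tbx6 belongs to the T-box family of transcription factors and is made in the paraxial mesoderm. In the presomitic mesoderm it acts upstream of the genes that set the border of each forming somite, and zebrafish that lack it do not form regular somite borders. T-box factors bind short DNA motifs through their T-box domain. Regulatory elements of developmental genes can stand alone far from the gene they act on, or lie in groups around it, so the spacing of binding sites by itself does not name a target.

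Chromatin came from whole embryos of the line Tg(hsp70l:tbx6Myc)v8, in which the hsp70l heat-shock promoter drives myc-tagged tbx6, and from embryos labelled Weslyan University wild type, which served as the control. Embryos of both kinds were raised at 28.5 °C to the stage labelled 10S and kept at 37 °C for 1 h, and an anti-myc antibody was used on both. The promoter is not restricted to the presomitic mesoderm, so a peak can come from any tissue of the embryo and need not be a site of the endogenous protein. The transgenic list merges 2 ChIP libraries and the wild-type list, with 398 peaks, stands for 1 library. With 1 list per group there is no replicate error, and the sequencing depth behind the peaks is unknown. Each peak carries the authors' score, which is -log10 of the peak's p-value multiplied by 10, and which was averaged in the transgenic list.

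The rule sets every remote peak more than 200 kb from other kept peaks on each side that has one. The distance to the nearest kept peak had a median of 363 kb, with quartiles of 262 and 593 kb and a highest value of 5504 kb. The median over all kept peaks was 44.3 kb, and the rule fixes the direction of this difference in advance. A kept peak lay on both sides of 800 remote peaks, and the farther of these had a median distance of 859 kb (quartiles 578 and 1281 kb). Isolation thus went well past the threshold on the farther side of most of them. Both distances exceeded 500 kb for 264 remote peaks and 1 Mb for 56. The 27 others were the first (14) or last (13) kept peak of their chromosome and had a neighbour on 1 side only.

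The threshold cut through a continuous range of distances. Just inside it were a peak of score 239 at 7819277 to 7819767 of chromosome 16, 200175 bp from its neighbour, and one of score 166 at 40691959 to 40692677 of chromosome 14, at 200456 bp. The next, on chromosome 16 from 46205013 to 46205316, scored 113 at a distance of 200612 bp. Just outside it were a peak of score 114 at 22843710 to 22844051 of chromosome 1, at 199939 bp, and a pair on chromosome 25 that were 199778 bp from each other. That pair, starting at 17236181 and 17436275, scored 112 and 126. Between 200 and 220 kb there were 85 remote peaks, and between 180 and 200 kb there were 85 kept peaks that did not qualify.

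Many remote peaks stood next to one another along the chromosome, which the rule itself favours, since a neighbour of a remote peak already has a gap of over 200 kb on 1 side. For 418 of the 827, the nearest kept peak was itself remote, for 327 it had another peak at 10 to 200 kb, and for 82 it had another within 10 kb. Of the remote peaks, 206 had no other remote peak next to them in the order of kept peaks. The other 621 stood in unbroken rows of 2 or more, and 427 in rows of 3 or more. These counts describe the list, and no tendency to follow one another was tested. The longest rows held 9 peaks each. One ran from 59238132 to 65292948 of chromosome 7, a stretch of 6.05 Mb, and the other from 11248607 to 20249824 of chromosome 12, a stretch of 9.00 Mb. Rows of 8 lay on chromosomes 9 and 11.

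As a group, remote peaks scored below the kept peaks that had closer neighbours. Their median score was 175 (95% interval 167 to 183), with quartiles of 136 and 245. The median was 186 (180 to 190) for the 1925 kept peaks whose nearest neighbour was 10 to 200 kb away and 215 (206 to 226) for the 1026 with a neighbour within 10 kb. The scores of the 3 groups overlapped over almost their whole range, from 93.7 to 1372 for remote peaks, from 94.3 to 2177 at 10 to 200 kb and from 94.8 to 1686 within 10 kb. These differences were not tested, because the same peak calls gave both the scores and the positions that define the groups.

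The score was not lower at every further step of distance. In bins of the distance to the nearest peak, the median was 226 up to 1 kb, 212 from 1 to 10 kb and 194 from 10 to 50 kb. Beyond that it levelled off, with 179 from 50 to 100 kb and 176 from 100 to 200 kb. The remote bins continued at 178 from 200 to 300 kb, 178 from 300 to 500 kb and 172 beyond 500 kb, with intervals of 166 to 193, 165 to 189 and 159 to 182. The low score of remote peaks was therefore shared by kept peaks with a neighbour at 50 to 200 kb. Within the 827, score and distance were barely related (Spearman rho -0.04 across peaks of 1 list), against -0.14 across the other 2951 kept peaks. Neighbouring peaks are not independent, and no p-value was attached to these coefficients.

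**Figure D1:**
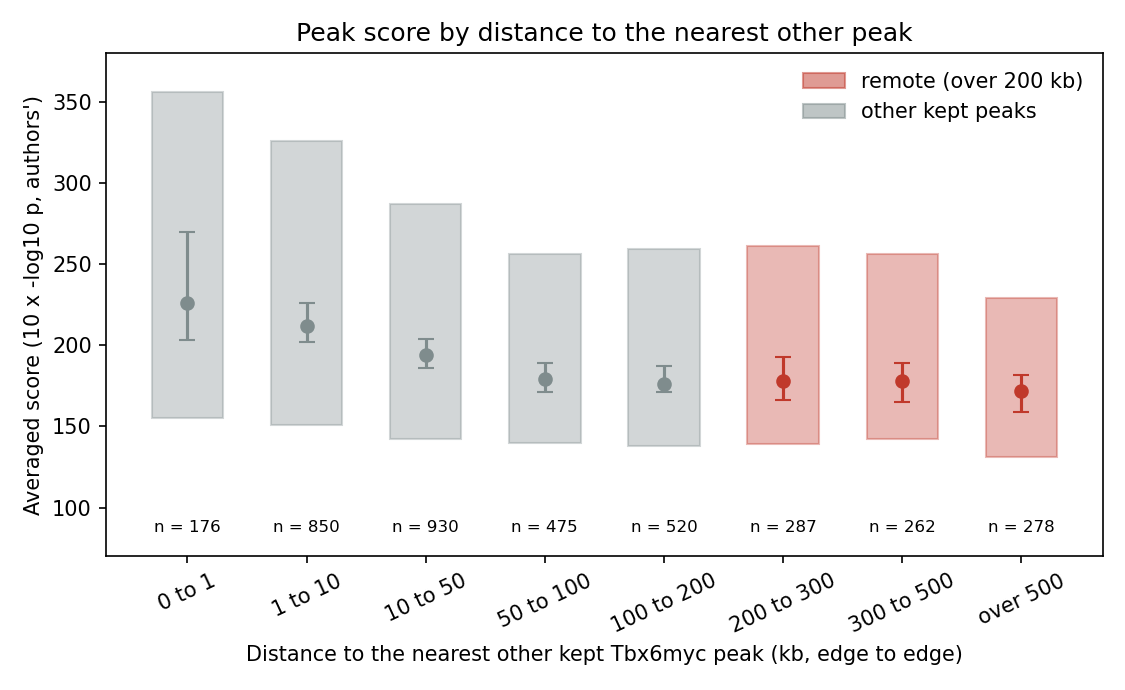
Averaged score (y axis, -log10 p multiplied by 10) against distance to the nearest other kept peak (x axis, kb); points are medians with 95% intervals, boxes span the quartiles, red bins are remote peaks and grey bins other kept peaks. Medians went down from 226 in the bin up to 1 kb to 179 in the bin from 50 to 100 kb, and the 3 remote bins lay at 178, 178 and 172.

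Strong peaks were found among the remote ones, at a lower share than in the whole list. A score of 415 marks the 90th percentile of the kept peaks, and 47 remote peaks, or 5.68% (4.21 to 7.49%), were at or above it, beside 10.0% of all kept peaks. The share was 9.04% (7.80 to 10.4%) with the nearest neighbour at 10 to 200 kb and 15.3% (13.2 to 17.7%) within 10 kb. Read the other way, remote peaks made up 12.4% (9.28 to 16.2%) of the highest-scoring 10% of kept peaks. In the 9 lower bands of 10% they made up between 17.7 and 29.4%, with 26.5% in the lowest. The decline was not even, since the highest share fell in the band from 150 to 168. Of the 100 strongest kept peaks 9 were remote, and of the 1000 strongest 165 were.

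**Figure D2:**
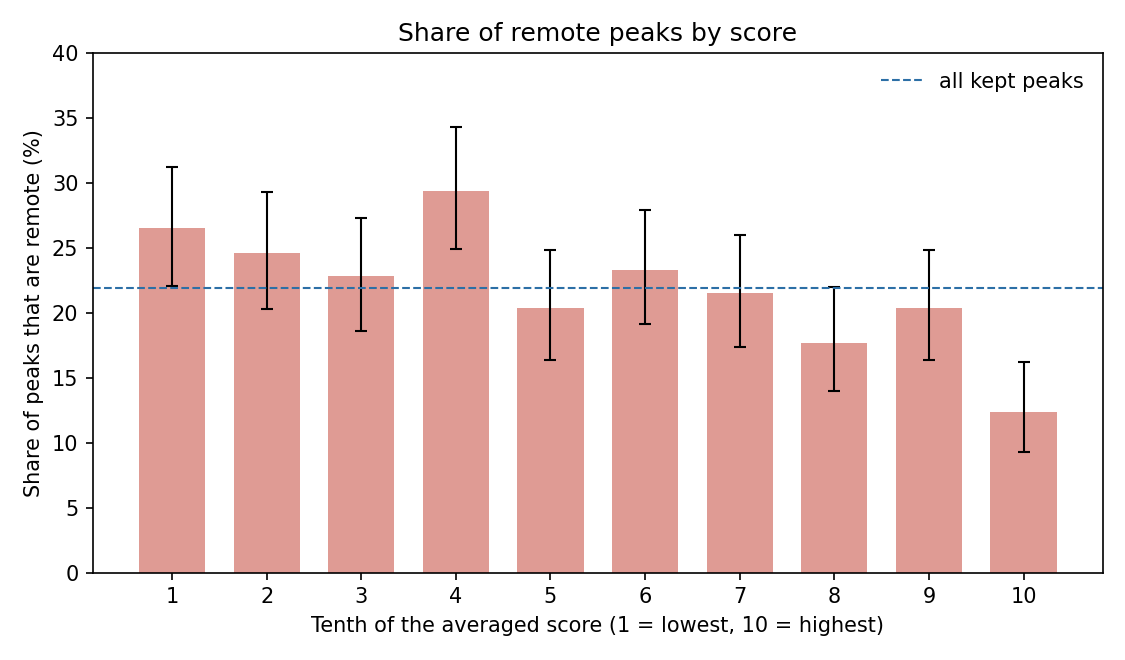
Share of kept peaks that were remote (y axis, %) in bands of 10% of the averaged score (x axis, lowest to highest); bars carry exact 95% binomial intervals and the dashed line is the share over all kept peaks, 21.9%. The highest-scoring band has the smallest share, 12.4%, and the other 9 lie between 17.7 and 29.4%.

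The strongest remote peaks reached the top ranks of the whole list. The highest, with a score of 1372, was an 850 bp interval at 8709546 to 8710395 of chromosome 10 and ranked 4 among the kept peaks. Its neighbours were 804 kb before it and 537 kb after it, and the nearest wild-type peak was 2.31 Mb away. No other remote peak was among the 10 strongest kept peaks. The second, at 14841917 to 14842993 of chromosome 6, scored 1031, with gaps of 287 and 1326 kb. The third, at 14515437 to 14516319 of chromosome 23, scored 1006 and lay close to the threshold, with a gap of 204 kb after it and 528 kb before it.

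Chromosomes 1 and 9 each held 2 of the 10 strongest. On chromosome 1 these were the fourth, at 28839119 to 28839730 (score 937, gaps of 802 and 1829 kb), and the seventh, at 25230819 to 25231472 (score 811, gaps of 879 and 341 kb). On chromosome 9 they were the fifth, at 47640124 to 47640755 (score 884, gaps of 250 and 594 kb), and the tenth, at 30690231 to 30690731 (score 636, gaps of 695 and 579 kb). The remaining 3 lay on chromosomes 25, 3 and 11. The peak at 33149529 to 33150093 of chromosome 25 scored 837 and the one at 10643860 to 10644436 of chromosome 3 scored 800. These 2 were the only ones of the 10 with a wild-type peak within 500 kb, at 261 and 225 kb. The last, at 5840973 to 5841773 of chromosome 11, scored 722, with gaps of 599 and 295 kb. All 10 were at least 501 bp wide, above the median of remote peaks.

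**Figure D3:**
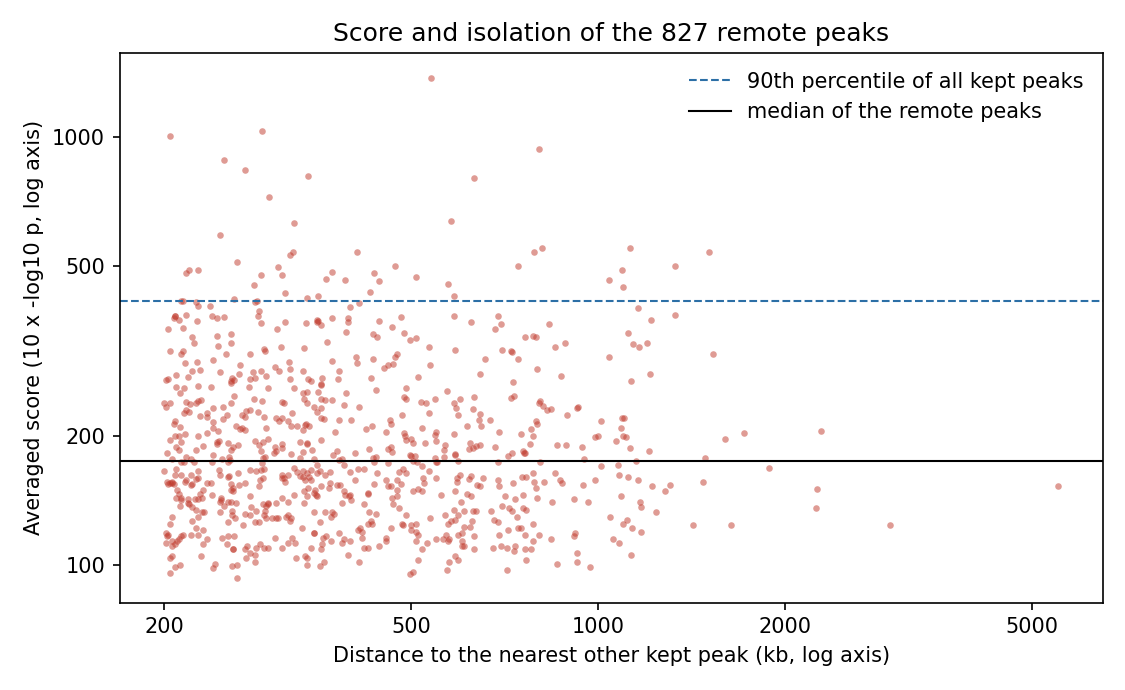
Averaged score (y axis, log scale) of each of the 827 remote peaks against the distance to its nearest kept peak (x axis, kb, log scale); the solid line is the median of the remote peaks, 175, and the dashed line the 90th percentile of all kept peaks, 415. Points of high and low score are spread over most of the range of distances, and the 5 most isolated peaks lie between 124 and 206.

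The 5 most isolated peaks were not strong ones. The peak farthest from any other lay at 725235 to 725681 of chromosome 7, the first kept peak of that chromosome, 5.50 Mb from the next, with a score of 153. That next peak, at 6229722 to 6230085, was remote too, with a gap of 2.29 Mb on its other side and a score of 206. On chromosome 4 the peak at 41265264 to 41265682 had gaps of 13.3 and 2.95 Mb and scored 124. The others were at 50673464 to 50674014 of chromosome 17 (score 151, gaps of 2.25 and 2.51 Mb) and at 4360892 to 4361426 of chromosome 3 (score 136, nearest peak 2.24 Mb away). The highest-ranked of these 5 was number 1649 of the kept peaks. The 56 remote peaks with more than 1 Mb free on both sides had a median score of 186 (158 to 209). Of these 56, 6 (10.7%, 4.03 to 21.9%) reached the 90th percentile of all kept peaks, beside 10.0% of all kept peaks. The scores of the 56 ran from 106 to 550, so none of the 10 strongest remote peaks was among them.

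At the other end of the scale, the weakest kept peak of all was remote. It lay at 30908496 to 30908932 of chromosome 11 and scored 93.7. The next remote peaks from the bottom scored 95.3 at 27860037 to 27860406 of chromosome 9, 96.3 at 13508747 to 13509093 of chromosome 11 and 96.6 at 34915966 to 34916292 of chromosome 10. The fifth, at 28552308 to 28554362 of chromosome 25, scored 97.5 although it was 2055 bp wide. It was the second widest remote peak. A wild-type peak lay 8.92 kb from it. Whether these weak peaks would be called in each library alone was not tested, since the list gives an averaged score.

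As a group, remote peaks were a little narrower than the others. Their median width was 459 bp (444 to 471 bp), with quartiles of 374 and 565 bp. It was 480 bp (472 to 487 bp) with the nearest neighbour at 10 to 200 kb and 510 bp (499 to 520 bp) within 10 kb. Within the first of these groups it was 498 bp (484 to 513 bp) from 10 to 50 kb. It was 472 bp (450 to 490 bp) from 50 to 100 kb and 465 bp (453 to 478 bp) from 100 to 200 kb. Both intervals beyond 50 kb overlapped that of remote peaks, so the smaller width was not particular to remote peaks. Width and score were related across the remote peaks (Spearman rho 0.40, 827 peaks of 1 list) and across the other kept peaks (0.45), while the rho of width with distance was 0.00 among the remote peaks. The kept peaks were then split by score into 4 equal bands. In the lowest band the medians were 403, 423 and 424 bp for remote peaks, peaks at 10 to 200 kb and peaks within 10 kb. In the second band they were 432, 458 and 444 bp, and in the highest band 577, 600 and 600 bp. Against peaks within 10 kb each band's gap was smaller than the overall one, but against peaks at 10 to 200 kb it was about as large in 3 of the 4 bands. Remote peaks had the smallest median in each of the 4 bands, while their interval overlapped those of both other groups in every band. The overlap was smallest for scores from 189 to 282, with 488 bp (467 to 505 bp) for remote peaks, 489 bp (478 to 510 bp) for peaks at 10 to 200 kb and 520 bp (502 to 545 bp) for peaks within 10 kb.

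**Figure D4:**
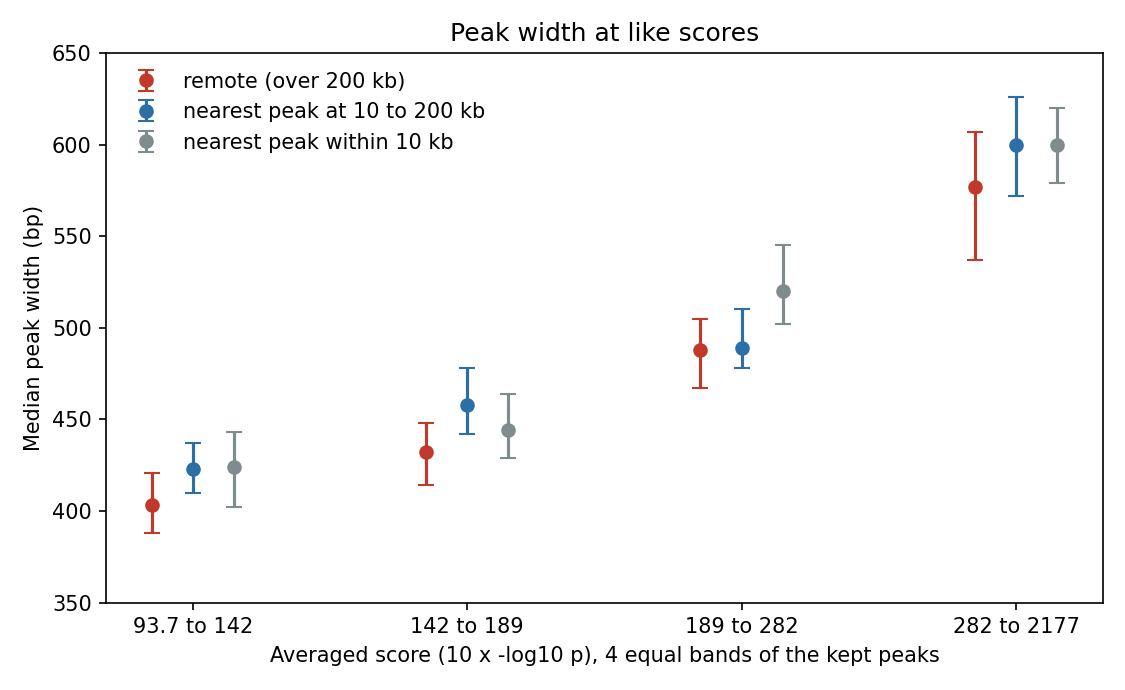
Median peak width (y axis, bp) in 4 equal bands of the averaged score (x axis) for remote peaks (red), peaks with the nearest other at 10 to 200 kb (blue) and within 10 kb (grey); bars are 95% intervals of the median, and the y axis does not start at 0. Median widths of remote peaks went up from 403 bp in the lowest band to 577 bp in the highest, and their intervals overlapped those of the other groups in every band.

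Very narrow intervals were present among the remote peaks as well. Of the 827, 44 (5.32%, 3.89 to 7.08%) were narrower than 277 bp, the width of the narrowest wild-type peak, beside 4.18% of all kept peaks. The share was 4.05% (3.22 to 5.03%) with the nearest neighbour at 10 to 200 kb and 3.51% (2.47 to 4.82%) within 10 kb. It did not go up steadily with distance, since kept peaks with a neighbour up to 1 kb away had 9.66% (5.73 to 15.0%). The narrowest were 107 bp at 1215480 to 1215586 of chromosome 9, 195 bp at 75191724 to 75191918 of chromosome 7 and 211 bp at 20001383 to 20001593 of chromosome 10, with scores of 144, 102 and 118. The widest remote peak, which was also the widest of all kept peaks, spanned 2857 bp at 64248349 to 64251205 of chromosome 7 and scored 463. After the peak on chromosome 25 came a 1567 bp interval at 60120957 to 60122523 of chromosome 1, which scored 157 and was the last kept peak of its chromosome.

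The remote share differed from chromosome to chromosome. It was lowest on chromosome 21, with 13 of 131 kept peaks (9.92%, 5.39 to 16.4%), and on chromosome 14, with 18 of 147 (12.2%, 7.42 to 18.7%). It was highest on chromosome 10, with 37 of 123 (30.1%, 22.1 to 39.0%), and on chromosome 2, with 40 of 138 (29.0%, 21.6 to 37.3%). The intervals of the 2 lowest and the highest lay clear of the overall 21.9%, the highest only narrowly. They treat peaks as independent, although the same gap counts for the peaks on both its sides, so they are too narrow. With 25 chromosomes compared, some intervals can miss the overall share by chance, and differences between chromosomes were not tested. Chromosomes with more kept peaks per Mb tended to have a smaller remote share (Spearman rho -0.43 over 25 chromosomes, where the number of kept peaks enters both measures).

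The remote share did not follow the density of kept peaks on every chromosome. Chromosome 21 had 2.98 kept peaks per Mb, close to the 2.82 of all chromosomes together, yet only 0.296 remote peaks per Mb, the lowest value. Chromosome 23 had more kept peaks per Mb, 3.46, and the most remote peaks per Mb, 0.936, with 43 of its 159 kept peaks (27.0%) remote. On chromosome 13, the densest with 3.70 per Mb, 33 of 200 (16.5%) were remote. The chromosomes named here are extremes among the 25. The intervals of the shares on chromosomes 23 (20.3 to 34.7%) and 13 (11.6 to 22.4%) overlapped. Chromosome 14, with the same 2.98 kept peaks per Mb as chromosome 21, also had a low share, 12.2%. The highest coordinate of either list stood in for chromosome length.

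**Figure D5:**
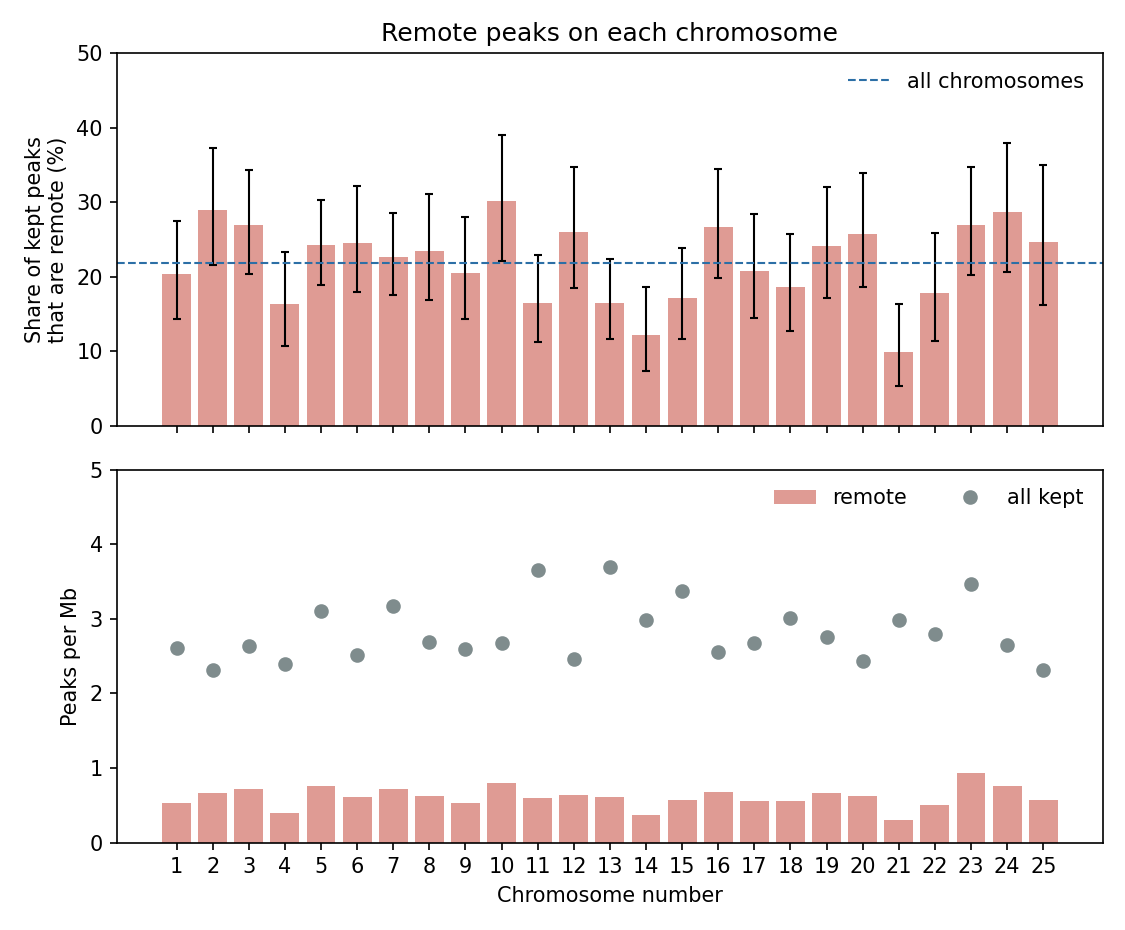
Upper panel, share of kept peaks that were remote (y axis, %) on each of the 25 chromosomes (x axis), with exact 95% binomial intervals and the overall share of 21.9% as a dashed line; lower panel, remote peaks (bars) and all kept peaks (dots) per Mb. Chromosomes 21 and 14 have the smallest shares, 9.92 and 12.2%, and chromosome 23 has the most remote peaks per Mb, 0.936.

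Median scores of the remote peaks lay between 147 on chromosome 8 and 224 on chromosome 18. Remote peaks at or above the 90th percentile of score were found on 23 of the 25 chromosomes, with none on chromosomes 4 and 19. Chromosome 4 had 24 remote peaks among 147 kept peaks (16.3%). Its part beyond the midpoint, which has few peaks, held 4 kept peaks and all 4 were remote. Besides the peak at 41265264, these started at 44216624, 44804358 and 46686983 and scored 149, 319 and 169. Wild-type peaks lay 46.5 kb from the one at 44216624 and 29.9 kb from the one at 46686983. Mappability of this part was not tested.

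The wild-type control asks whether remote peaks lie near signal that appears without a tagged protein. The 10 Tbx6myc peaks on numbered chromosomes that overlap a wild-type peak had been set aside, so the closest cases are missing from both groups. Part of the 398 wild-type peaks lay outside the 25 numbered chromosomes, so they could not lie near a kept peak. The numbered chromosomes held between 4 and 21 each. Few remote peaks, and few of the others, lay within short distances of a wild-type peak. A wild-type peak lay within 10 kb of 5 of the 827 (0.605%, 0.197 to 1.41%) and of 20 of the other 2951 (0.678%, 0.414 to 1.04%). Within 200 kb the shares were 5.56% (4.10 to 7.35%) for remote peaks and 7.22% (6.31 to 8.21%) for the others, and the intervals overlapped at both distances. Within 1000 kb they were 24.7% (21.8 to 27.8%) for remote peaks and 29.6% (27.9 to 31.3%) for the others, and the intervals narrowly failed to overlap. These intervals treat peaks as independent, although neighbouring peaks can lie near the same wild-type peak. No difference is therefore read from the narrow gap between them. The median distance to the nearest wild-type peak was 2.63 Mb for remote peaks and 2.40 Mb for the others. The 46 remote peaks with a wild-type peak within 200 kb had a median score of 166 (152 to 187), against 176 (167 to 184) for the other 781.

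The 5 remote peaks closest to a wild-type peak had little else in common. The nearest was at 1876704 to 1876999 of chromosome 19, 3.10 kb from a wild-type peak, with a score of 105. A peak at 72617073 to 72617467 of chromosome 7 was 3.77 kb away and scored 160. One at 36977979 to 36978577 of chromosome 24 was 3.82 kb away and scored 454, above the 90th percentile. The others were at 11183298 to 11183720 of chromosome 16 (5.87 kb, score 311) and the wide peak on chromosome 25. The peak on chromosome 16 was remote only because peaks that overlap the wild-type list were set aside. A Tbx6myc peak of that kind, at 11176842 to 11177613 with a score of 417, lay 5.68 kb from it. The same held for 1 other remote peak, at 16777113 to 16777929 of chromosome 10 (score 145), which was 24.6 kb from such a peak.

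A few remote peaks had a twin of exactly the same width and averaged score elsewhere in the transgenic list. There were 8 of them among the 827, of which 4 were on chromosome 5, the chromosome with the most remote peaks (57). The share of all kept peaks with a twin is not given here. The 8 are therefore not shown to be particular to remote peaks. On chromosome 1 both twins were remote and were each other's nearest neighbours. They started at 36818098 and 37026917, 208 kb apart, were 379 bp wide and scored 382. On chromosome 5, peaks starting at 53807798, 56172252 and 56796120 had twins on the same chromosome, 224, 1133 and 7146 kb away. The fourth, at 15774021, had its twin at 5742981 of chromosome 4. The twins of the peaks at 19221974 of chromosome 6 and 48228354 of chromosome 13 were on the unplaced scaffolds Zv9_scaffold3534 and Zv9_scaffold3560. Whether the paired intervals have the same sequence was not tested.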

How the data were processed

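Per the submitters' processing notes, alignment used Bowtie and the genome Zv9 (danRer7). On the Bowtie version, the caller of the peaks and its threshold, nothing was given in the sources used here. The score deposited by the authors is -log10 of the p-value multiplied by 10, per the file headers. The headers call it an average in the transgenic list, for which 2 ChIP libraries were merged, per the labels. Positions are on Zv9 and were taken as 1-based. No Zv9 sequence or gene annotation was used here, so peaks are named by position and no sequence or gene is given. The members, groups and alternatives were chosen with earlier results of these data known.

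Distances count the bases between intervals. Medians carry 95% intervals from order statistics, shares exact binomial intervals (scipy 1.17.1). Nothing was tested, since scores, widths and positions come from the same peak calls. The distance calculation was tested on simulated peaks. The comparison that set aside peaks overlapping the wild-type list was not part of that test. By rule, the text names the 10 strongest, 5 weakest and 5 most isolated members, the 3 widest, the 3 narrowest, the 3 nearest to a wild-type peak, those with a twin of the same width and score, and 3 on either side of the threshold. The other peaks named were chosen after their values were seen. The input samples were not used.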

Additional observations from a re-analysis of the deposited data

How the results depend on the processing

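The median score and the median width of the remote peaks each stayed within its 95% interval under 9 of 10 alternatives, the exception being the restriction to stronger peaks. Apart from that restriction and the changes of threshold, the alternatives kept 800 to 827 of the 827 peaks, so their medians could hardly move. Moving the threshold changed the number of remote peaks by construction, to 1347 beyond 100 kb, 540 beyond 300 kb and 278 beyond 500 kb. The number at or above the 90th percentile of score became 86, 33 and 16, or 6.38, 6.11 and 5.76% of the members. When only kept peaks at or above the median score were used, 651 were remote, of which 360 were among the 827. Their median score was 271, against 289 for the other 1238 such peaks, and their median width was 519 bp. Of the 651, 101 (15.5%) were at or above the 90th percentile of all kept peaks, beside 378 of all 1889 peaks in the stronger part. The weak peaks had been dropped, so higher values follow from the construction. Midpoint distances gave 830 remote peaks, all Tbx6myc peaks as neighbours 825, 1 of each identical set 832, no chromosome 4 803, a neighbour on both sides 800 and no wild-type peak within 1 kb 827. No paired analysis was possible because there is only 1 list per group. Depth is unknown, so a weaker site under the caller's threshold would not be seen, and isolation is isolation among called peaks only.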

Other observations

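Remote peaks made up a larger share of the kept peaks near the ends of chromosomes, and there the score difference was not seen. This split was chosen after its values were seen, and was not tested. Of the 561 kept peaks in the first or last 10% of a chromosome, 175 (31.2%, exact 95% interval 27.4 to 35.2%) were remote, against 652 of 3217 (20.3%, 18.9 to 21.7%) in the part between. The outer parts held 21.2% of all remote peaks and 13.1% of the other kept peaks. These are shares of kept peaks, and whether remote peaks crowd near the ends was not tested. Without the first and last kept peak of each chromosome, which have a neighbour on 1 side only, the shares were 29.1% and 20.2%. In the outer parts the median score was 186 (166 to 204) for remote peaks and 178 (170 to 191) for the others. In the part between it was 174 (165 to 179) for remote peaks and 196 (192 to 202) for the others. The median widths were 458 bp for remote peaks and 475 bp for the others in the outer parts. In the part between they were 459 and 493 bp. No intervals were computed for these widths, so no difference is read from them.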
